A study of Mus musculus with 7 samples.

Results

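The genes described here make, store and release fat. They are 37 mouse genes of fatty acid synthesis, triglyceride assembly, the lipid droplet, lipid uptake and lipolysis, chosen by symbol and matched to 37 of the 46603 gene identifiers counted. They were measured by RNA sequencing of tumors that grew in nude mice. Nuclear myosin 1 (NM1) is the nuclear isoform of the motor protein encoded by Myo1c. The KO tumors came from mouse embryonic fibroblasts (the line ATCC CRL-2752) in which NM1 had been deleted with CRISPR/Cas9. The KO+NM1 tumors came from the same deleted cells after a lentiviral vector had returned NM1 fused to HA and V5 tags, with neomycin selection and testing of single clones, so both groups carried the deletion and only KO+NM1, the rescued group, carried the returned NM1. Cells were injected into female nude mice of the Balb/c strain, aged 16 weeks and 5 per group, and tumors were taken on day 30 according to the sample labels. The text of the study gives an earlier day for the isolation of the tumors. The labels and methods place the injection under the skin of the right flank, while the text of the study elsewhere names the mammary pads. Each group's tumor was cut into 4 pieces; 3 KO and 4 KO+NM1 pieces were analysed. The spread between pieces therefore holds no difference between mice if each group is 1 tumor, and the p-values given here measure spread between pieces. Each piece is bulk tissue, in which transcripts of injected and host cells were counted together and fewer cells of a type cannot be told apart from less RNA per cell.

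A cell makes fatty acids from acetyl-CoA, joins them to a glycerol backbone as triglyceride, and stores the triglyceride in droplets coated by perilipins. In fed fat tissue, lipoprotein lipase adds fatty acids from the blood, and in fasting a chain of lipases takes the stored triglyceride apart again. Fat cells, liver and the lactating mammary gland use this machinery most, while most dividing cells keep a low level of it for their membranes.

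The libraries held 24088309 to 28326568 counted reads. Myo1c was at 313, 289 and 306 CPM (read counts scaled for library size and composition) in KO and at 438, 408, 406 and 382 CPM in KO+NM1 (log2 fold change -0.43, standard error 0.13, adjusted p = 0.031 by edgeR), and gene counts do not separate NM1 from the other products of that gene. The KO+NM1 piece 01 stood apart from the other pieces of its group, with correlations of log2 CPM with them of 0.855 to 0.861. Fibroblast markers were present in all 7 libraries. White adipocyte markers (Adipoq, Lep, Retn, Cfd, Trarg1, Slc7a10 and Adig) summed to 9.67 to 95.4 CPM in the KO pieces and to 1447 to 13024 CPM in the KO+NM1 pieces, and 7 of 7 were lower in KO. Mammary epithelium markers summed to 4.07 to 68.8 CPM and to 537 to 2366 CPM, and 7 of 9 tested were lower in KO. Skeletal muscle markers went the other way, with 8 of 8 higher in KO and sums of 2214 to 18558 CPM in KO and 13.7 to 35.2 CPM in KO+NM1. These and later counts of markers stand beside 20.3% lower and 17.1% higher over all genes tested, at an adjusted p under 0.05 (edgeR) and 2-fold. The part of these cell types in the results on lipid genes was not tested.

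Fat genes were far lower in the KO pieces. Reads of the 37 genes made up 0.274%, 0.275% and 0.238% of all counted reads across the KO pieces, in the order 01 to 03. Across the rescued pieces, in the order 01 to 04, the share was 1.52%, 6.56%, 7.75% and 5.50%, so the lowest rescued piece lay above the highest KO piece. Of the 37 genes, 30 were lower in KO past both thresholds used, adjusted p under 0.05 (edgeR) and 2-fold, and 0 were higher. Over all 16887 genes tested, 20.3% were lower and 17.1% were higher by the same thresholds. At an adjusted p under 0.05 alone, 31 genes were lower and 1, Lpin2, was higher. The median log2 fold change, KO minus KO+NM1, was -4.31 over the 37 genes and -0.0017 over all genes tested. Among the 30 that fell, 29 were at least 4-fold, 20 at least 16-fold and 12 at least 64-fold lower. In 30 of the 37 the KO pieces all lay below the rescued pieces, a pattern that 26.4% of all genes tested had, and in 1 the KO pieces all lay above, which 30.5% of all genes had. Without the KO+NM1 piece 01, 31 of the 37 fell. All 37 passed the filter on low counts.

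**Figure D1:**
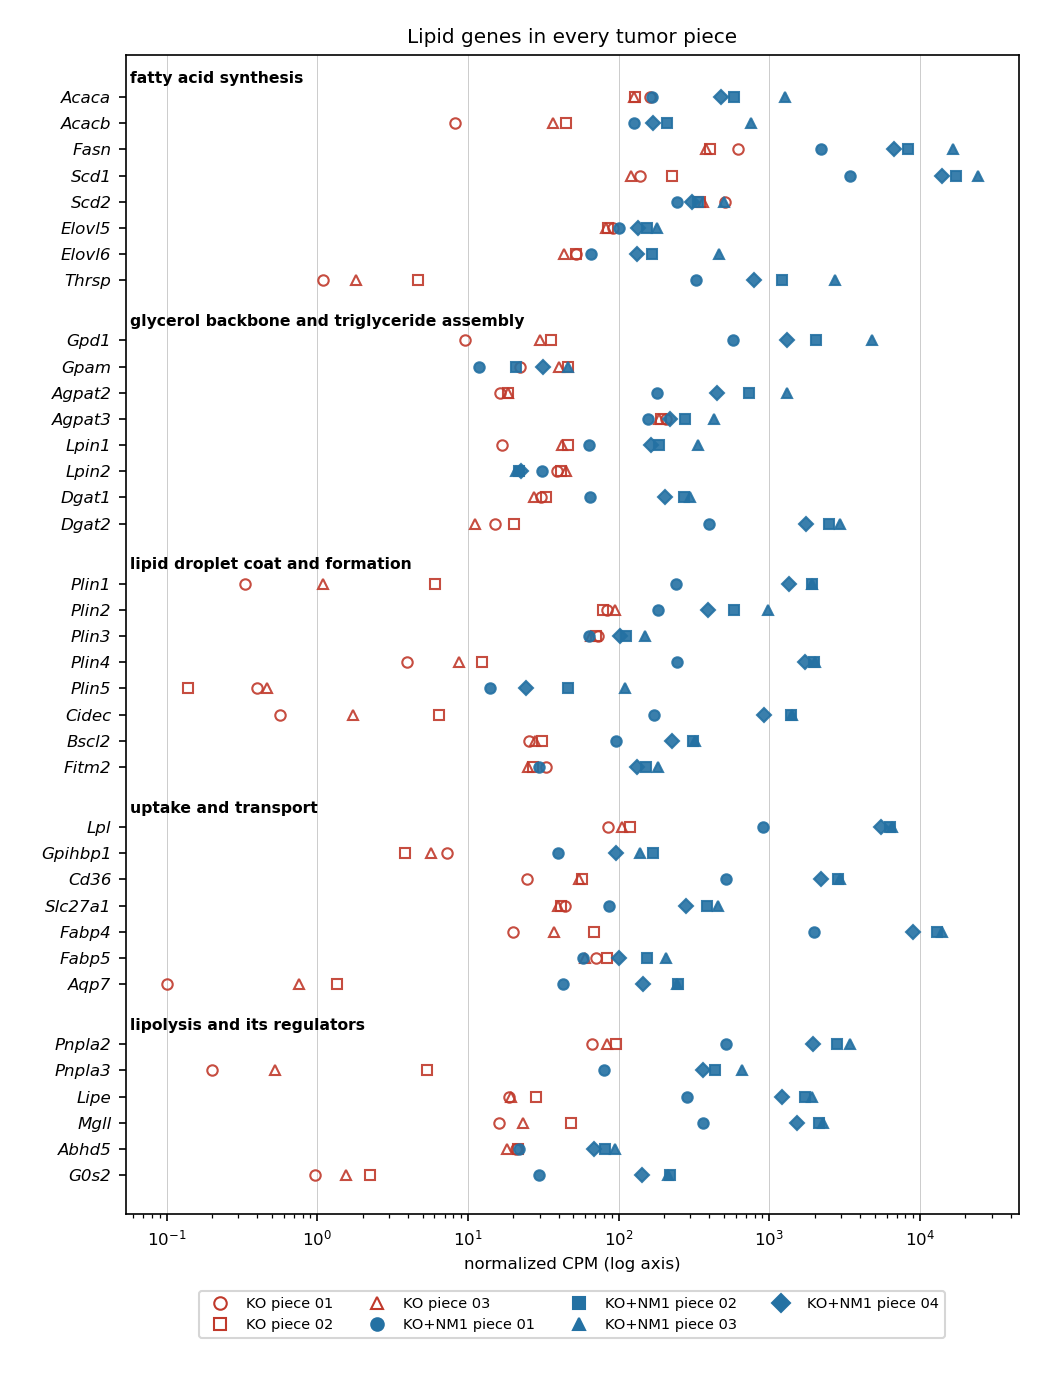
Normalized CPM (log axis) of the 37 lipid genes in each tumor piece, grouped by role; open red symbols are the 3 KO pieces and filled blue symbols the 4 KO+NM1 pieces. In 30 of the 37 genes all KO pieces lie below the rescued pieces, as in 26.4% of all genes tested. In 1 they all lie above, as in 30.5% of all genes tested. KO+NM1 piece 01 (filled circles) is lowest of the rescued pieces in 36 of 37 genes.

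Promoters were read for 28 of the 37 genes from RefSeq (build GRCm38.p6, 250 bases before to 50 after each transcription start, written 5′ to 3′ on the strand of the gene). Gpd1, Fabp5, Lpl, Dgat1, Scd1, Gpihbp1, Scd2, Dgat2 and Fabp4 were not matched. The sequences of 5 genes are shown because they carry the motifs searched and differ in response: Plin2, Cd36 and Aqp7 hold a DR1, Fasn is the central enzyme of fatty acid synthesis, and Lpin2 is the gene whose KO pieces all lay above the rescued pieces. Capitals mark matches to any motif searched.
Plin2 (chr4:86670010-86670309, minus strand): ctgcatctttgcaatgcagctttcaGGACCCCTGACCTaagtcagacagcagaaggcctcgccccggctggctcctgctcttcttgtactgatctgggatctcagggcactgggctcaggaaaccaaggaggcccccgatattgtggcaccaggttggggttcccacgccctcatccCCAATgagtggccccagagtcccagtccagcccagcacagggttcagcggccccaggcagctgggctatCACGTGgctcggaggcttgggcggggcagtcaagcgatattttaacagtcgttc
Cd36 (chr5:17835847-17836146, minus strand): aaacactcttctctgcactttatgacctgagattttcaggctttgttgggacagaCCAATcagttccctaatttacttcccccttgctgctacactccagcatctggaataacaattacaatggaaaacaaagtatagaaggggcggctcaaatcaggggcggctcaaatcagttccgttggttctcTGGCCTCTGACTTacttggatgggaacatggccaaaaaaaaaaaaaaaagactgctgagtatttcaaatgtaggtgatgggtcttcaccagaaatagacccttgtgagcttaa
Aqp7 (chr4:41047913-41048212, minus strand): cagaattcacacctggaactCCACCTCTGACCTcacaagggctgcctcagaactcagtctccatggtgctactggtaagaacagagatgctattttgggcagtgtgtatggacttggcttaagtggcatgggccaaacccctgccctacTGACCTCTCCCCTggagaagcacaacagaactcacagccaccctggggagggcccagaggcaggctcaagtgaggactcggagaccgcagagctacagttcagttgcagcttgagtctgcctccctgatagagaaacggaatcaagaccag
Fasn (chr11:120824498-120824797, minus strand): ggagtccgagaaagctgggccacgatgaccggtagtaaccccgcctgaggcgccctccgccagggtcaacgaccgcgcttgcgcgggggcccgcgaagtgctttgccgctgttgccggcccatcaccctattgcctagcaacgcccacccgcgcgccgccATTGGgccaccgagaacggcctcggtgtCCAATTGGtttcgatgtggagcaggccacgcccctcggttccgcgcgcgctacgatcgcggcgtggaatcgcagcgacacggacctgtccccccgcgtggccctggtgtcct
Lpin2 (chr17:71183282-71183581, plus strand): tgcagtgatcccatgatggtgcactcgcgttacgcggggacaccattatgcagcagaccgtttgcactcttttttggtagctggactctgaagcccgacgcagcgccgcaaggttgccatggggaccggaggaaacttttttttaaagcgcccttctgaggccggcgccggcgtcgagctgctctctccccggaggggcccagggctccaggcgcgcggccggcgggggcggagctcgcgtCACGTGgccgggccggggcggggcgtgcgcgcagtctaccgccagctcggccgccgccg
A DR1 is 2 copies of AGGTCA with 1 base between them, the arrangement bound by PPARγ, the master regulator of fat cell formation, with its partner RXR; up to 2 mismatches and both strands were allowed. It was found in 3 of 28 genes and in 4.40% of all genes in the promoter table; the 3 genes fell in KO, as did 23 of the 28 with a promoter. The match in Plin2 was GGACCCCTGACCT, at bases -225 to -213 from the start, and the match in Cd36 was TGGCCTCTGACTT, at bases -63 to -51. In Aqp7 the windows of the 2 listed starts overlap. Both hold CCACCTCTGACCT, and only the window printed here also holds TGACCTCTCCCCT. The E-box CACGTG, which binds the sterol-responsive and carbohydrate-responsive factors of lipogenesis among many others, was in 6 of 28 genes (Elovl5, Lipe, Lpin2, Mgll, Plin2 and Slc27a1) and in 8.09% of all genes. Of those 6, Elovl5 and Lpin2 did not pass both thresholds. The CCAAT box (CCAAT, either strand) was in 14 of 28 genes, against 41.1% of all genes, and the TATA box (TATAAA) in 1, Acacb, against 15.7%. The sterol regulatory element TCACNCCAC was in 0 of 28, against 1.44% of all genes, which says only that these letters were not in these windows. Overlapping matches of 2 motifs were each counted.

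Fatty acid synthesis genes fell in KO for 6 of 8 members, with a median log2 fold change of -2.78. Fatty acid synthase, Fasn, which builds palmitate, was at 623, 404 and 379.6 CPM in KO and at 2216, 8349, 16669.6 and 6770.0 CPM in KO+NM1 (log2 fold change -4.18, standard error 0.64, adjusted p = 0.004). Even KO piece 01, the highest of its group, was below the rescued piece 01. Scd1, the stearoyl-CoA desaturase of fat and liver that makes oleate, was at 139, 228 and 121 CPM against 3423, 17472, 24258 and 14071 CPM (log2 fold change -6.51, standard error 0.65, adjusted p = 0.0014). These groups did not overlap, and Scd1 was the most abundant of the 37 genes in the rescued pieces. Thrsp, a nuclear protein induced by thyroid hormone that marks lipogenic tissue, was at 1.10, 4.69 and 1.82 CPM against 327, 1206, 2719 and 795 CPM (log2 fold change -8.96, standard error 0.77, adjusted p = 0.00115). The highest KO piece and the lowest rescued piece were thus far apart. The acetyl-CoA carboxylases make malonyl-CoA, Acaca in the cytosol for synthesis and Acacb at the mitochondrion, where malonyl-CoA restrains fatty acid oxidation. Acaca had 162, 129 and 127 CPM against 166, 580.4, 1264 and 475 CPM (log2 fold change -2.16, standard error 0.59, adjusted p = 0.0259), so that KO piece 01 and KO+NM1 piece 01 were nearly level. Acacb had 8.27, 44.5 and 36.7 CPM against 126, 209, 760.3 and 168 CPM (log2 fold change -3.40, standard error 0.78, adjusted p = 0.0172). Without KO+NM1 piece 03 the log2 fold changes were -1.57 for Acaca, -2.51 for Acacb and -8.28 for Thrsp, and without KO piece 02 that of Thrsp was -9.88.

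The elongases add carbon pairs to fatty acids. Elovl6, which lengthens palmitate to stearate, was at 52.0, 52.2 and 43.2 CPM against 65.4, 165, 461 and 132 CPM (log2 fold change -2.07, standard error 0.60, adjusted p = 0.0317; -1.32 without KO+NM1 piece 03). Elovl5, which works on polyunsaturated fatty acids, was at 91.3, 85.1 and 81.9 CPM against 101, 154, 179.8 and 134 CPM, below in every KO piece but short of 2-fold (log2 fold change -0.72, adjusted p = 0.0241). Scd2, the desaturase expressed in brain and in many dividing cells, was at 511, 348 and 363 CPM against 244, 334, 504 and 308 CPM, and its groups overlapped (log2 fold change 0.23, standard error 0.28, adjusted p = 0.529). The sign of the Scd2 value was not stable: it was -0.09 without KO piece 01 and -0.04 without KO+NM1 piece 01. In edgeR fits that left out 1 piece, Acaca and Elovl6 lost their calls without any 1 of the KO pieces or without KO+NM1 piece 02 (adjusted p from 0.0506 to 0.0915), and Acacb without KO piece 03 (0.0519). Of the distinct 50-base words in the transcripts of Acaca, 30.4% also occur in other annotated genes, chiefly Gm5182. How the counting treated reads that fit more than 1 gene is not given in the sources used here. For Scd1 the share was 4.56%, for Scd2 3.97% and for Elovl6 3.98%.

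Glycerol backbone and triglyceride assembly genes fell for 5 of 8 members, with a median log2 fold change of -2.61. Gpd1, the cytosolic glycerol-3-phosphate dehydrogenase that makes the glycerol backbone from a glycolytic intermediate, was at 9.63, 35.7 and 30.0 CPM in KO and at 576, 2036, 4773 and 1310.0 CPM in KO+NM1 (log2 fold change -6.44, standard error 0.75, adjusted p = 0.00219; -5.72 without KO+NM1 piece 03). Agpat2, an acyltransferase of a later step that is mutated in a congenital lipodystrophy, was at 16.4, 18.5 and 18.5 CPM against 179.9, 734, 1305 and 449 CPM (log2 fold change -5.23, standard error 0.58, adjusted p = 0.00155). For both genes the groups were far apart, and within KO+NM1 the order of the pieces was the same. Dgat2, which catalyzes the last step to triglyceride at the lipid droplet, was at 15.1, 20.4 and 11.1 CPM against 396, 2488, 2950.2 and 1762 CPM (log2 fold change -6.93, standard error 0.61, adjusted p = 0.00102). Dgat1, which does the same step in the endoplasmic reticulum, was at 30.6, 33.2 and 27.3 CPM against 64.3, 274, 300.1 and 204 CPM (log2 fold change -2.79, standard error 0.47, adjusted p = 0.00437). Lpin1, a phosphatidic acid phosphatase, was at 16.9, 45.8 and 42.4 CPM against 63.5, 186, 339 and 165 CPM (log2 fold change -2.43, standard error 0.57, adjusted p = 0.0154).

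The 3 members of this group that did not pass were Gpam, Agpat3 and Lpin2. Gpam, the mitochondrial acyltransferase that opens triglyceride synthesis, was at 22.1, 46.4 and 39.9 CPM against 11.8, 20.7, 46.5 and 31.7 CPM, with overlapping groups (log2 fold change 0.39, standard error 0.48, adjusted p = 0.529). Agpat3, an acyltransferase that mainly remodels phospholipids, was at 208, 189.8 and 185 CPM against 157, 275, 429.8 and 220.2 CPM (log2 fold change -0.48, adjusted p = 0.266). Lpin2, the phosphatase of the lipin family known from liver, was the only member whose KO pieces all lay above the rescued ones, at 38.8, 41.2 and 44.9 CPM against 31.2, 21.9, 20.9 and 22.4 CPM (log2 fold change 0.79, standard error 0.18, adjusted p = 0.00971), short of 2-fold. Its adjusted p was 0.0551 without KO piece 02 and 0.0725 without KO piece 03. The antisense gene Gm16537 overlaps 13.0% of the exon bases of Gpd1, and the strand setting of the counting is not given in the sources used here.

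Lipid droplet genes fell for 7 of 8 members, with a median log2 fold change of -5.12. Plin1, the perilipin that coats the large droplet of fat cells and holds lipases off it, was at 0.333, 6.01 and 1.09 CPM in KO and at 241, 1933, 1915 and 1355 CPM in KO+NM1. Its log2 fold change was -9.10 (standard error 1.00, adjusted p = 0.00261) with all 7 pieces and -11.01 without KO piece 02. Cidec, which fuses droplets into larger ones, was at 0.567, 6.40 and 1.72 CPM against 172, 1390.4, 1425 and 926 CPM (log2 fold change -8.40, standard error 0.91, adjusted p = 0.00226; -9.86 without KO piece 02). In both genes KO piece 02 was the highest of the KO pieces, as it was for the white adipocyte markers, whose sums were 9.67, 95.4 and 23.3 CPM in KO pieces 01 to 03. Sums of keratinocyte markers (27.0, 1236 and 8.42 CPM) and sebocyte markers (9.37, 120 and 5.61 CPM) were also highest in KO piece 02. So were those of mammary epithelium and skeletal muscle markers, while brown adipocyte, macrophage, endothelial and fibroblast sums were highest in KO piece 03. The part of these cell types was not tested. Plin4, a perilipin of nascent droplets in fat tissue, was at 3.93, 12.4 and 8.75 CPM against 244, 1972, 2003 and 1722 CPM (log2 fold change -7.47, standard error 0.71, adjusted p = 0.00132). Plin5, the perilipin of tissues that burn fat, was at 0.400, 0.139 and 0.462 CPM against 14.1, 45.9, 110.1 and 24.4 CPM (log2 fold change -7.16, standard error 0.80, adjusted p = 0.0015). It was the least abundant of the 37 in KO, and here piece 03 of the rescued group stood above piece 02 by 2.40 times, and without piece 03 the log2 fold change was -6.39.

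Plin2, the perilipin found on droplets of most cell types, was at 83.3, 79.3 and 94.3 CPM against 184, 582, 983 and 395 CPM (log2 fold change -2.65, standard error 0.50, adjusted p = 0.00695). Plin3, the widely expressed perilipin that moves from cytosol to new droplets, was at 73.3, 71.0 and 65.6 CPM against 63.1, 113, 150.1 and 103 CPM and did not pass (log2 fold change -0.61, standard error 0.27, adjusted p = 0.103). Without KO+NM1 piece 01 its log2 fold change was -0.93 with an adjusted p of 0.00151 by edgeR, still short of 2-fold. Bscl2, which encodes seipin, the organizer of droplet budding, was at 25.3, 31.2 and 27.9 CPM against 95.5, 310.3, 323 and 227 CPM (log2 fold change -3.08, standard error 0.39, adjusted p = 0.00166). Fitm2, which partitions fat into droplets at the endoplasmic reticulum, was at 33.1, 27.1 and 25.0 CPM against 29.8, 152, 183 and 132 CPM (log2 fold change -2.13, standard error 0.53, adjusted p = 0.0187). The Fitm2 groups overlapped, with KO+NM1 piece 01 below KO piece 01, and the call was lost without any 1 of the KO pieces (edgeR adjusted p from 0.0505 to 0.0616).

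**Figure D2:**
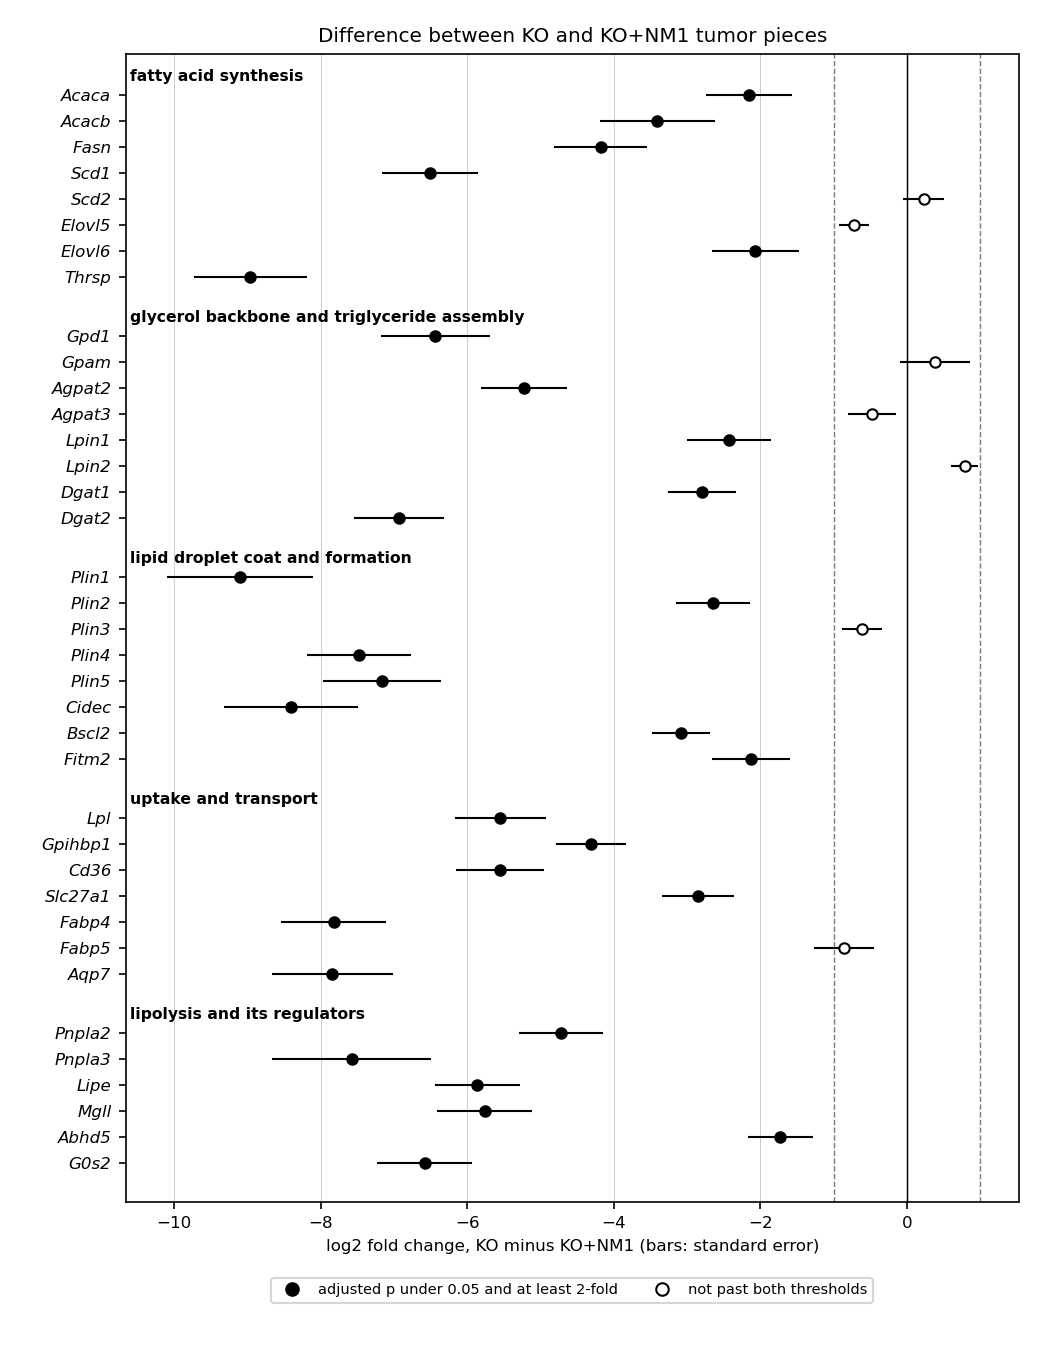
Log2 fold change of each of the 37 genes, KO minus KO+NM1, with its standard error from the edgeR fit; dashed lines mark a 2-fold change and filled points passed both thresholds. The 30 filled points all lie left of the lower dashed line, and the 7 open points lie between -0.86 and 0.79.

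Uptake and transport genes fell for 6 of 7 members, with a median log2 fold change of -5.55. Lpl, lipoprotein lipase, which frees fatty acids from circulating lipoproteins, was at 85.6, 119 and 106 CPM in KO and at 915, 6364, 6537 and 5488 CPM in KO+NM1 (log2 fold change -5.55, standard error 0.62, adjusted p = 0.00163). Gpihbp1, the capillary protein that carries Lpl to the vessel lumen, was at 7.23, 3.82 and 5.68 CPM against 39.4, 170.3, 138 and 96.4 CPM (log2 fold change -4.31, standard error 0.48, adjusted p = 0.00132). Gpihbp1 is a gene of endothelial cells. Of the endothelial markers, 8 of 8 were lower in KO, summing to 268 to 291 CPM against 1503 to 1817 CPM with a median log2 fold change of -2.56. Cd36, a fatty acid receptor of fat cells, capillaries and macrophages, was at 24.7, 57.2 and 54.6 CPM against 518, 2873, 2937 and 2199 CPM (log2 fold change -5.55, standard error 0.60, adjusted p = 0.00146). Of the macrophage markers, 7 of 8 were higher in KO. The part of endothelial cells and macrophages in the values of Gpihbp1 and Cd36 was not tested. Slc27a1, a fatty acid transporter with acyl-CoA synthetase activity, was at 44.3, 41.3 and 39.9 CPM against 87.0, 388, 457 and 279.7 CPM (log2 fold change -2.86, standard error 0.49, adjusted p = 0.00489).

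Fabp4, the fatty acid binding protein of fat cells, was at 20.0, 68.7 and 37.0 CPM against 1985, 12989, 14039.6 and 8953 CPM (log2 fold change -7.82, standard error 0.71, adjusted p = 0.00126; -8.50 without KO piece 02). Its relative Fabp5, expressed in skin and in many other cells, was at 70.3, 83.6 and 59.9 CPM against 57.7, 153, 206 and 101 CPM and did not pass (log2 fold change -0.86, standard error 0.41, adjusted p = 0.124). Fabp4 had fewer reads than Fabp5 in every KO piece and more in every rescued piece. Without KO+NM1 piece 01 Fabp5 passed, at a log2 fold change of -1.23 with an edgeR adjusted p of 0.00471, and of its 50-base words 5.48% occur in other genes, including Gm6166 and Fabp5l2. Aqp7, the channel through which fat cells release glycerol, was at 0.100, 1.36 and 0.759 CPM against 42.9, 247, 243 and 146 CPM (log2 fold change -7.84, standard error 0.82, adjusted p = 0.00154; -8.73 without KO piece 02). In KO piece 01 it had no more than 3 reads, the only member with a library that low.

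Lipolysis genes fell for 6 of 6 members, with a median log2 fold change of -5.81. The lipases act in order: Pnpla2 (adipose triglyceride lipase) removes the first fatty acid, Lipe (hormone-sensitive lipase) the next and Mgll (monoglyceride lipase) the last. Pnpla2 was at 66.5, 96.7 and 83.8 CPM in KO and at 514, 2805, 3409 and 1956 CPM in KO+NM1 (log2 fold change -4.72, standard error 0.57, adjusted p = 0.00189). Lipe was at 18.7, 28.3 and 19.4 CPM against 286, 1732, 1908 and 1219 CPM (log2 fold change -5.86, standard error 0.58, adjusted p = 0.00121). Mgll was at 16.0, 48.5 and 23.2 CPM against 362, 2154, 2283 and 1534 CPM (log2 fold change -5.76, standard error 0.65, adjusted p = 0.00176). All 3 lipases kept the same order of rescued pieces, with 01 lowest and 03 highest. Abhd5, the coactivator of Pnpla2, moved least, at 20.7, 21.4 and 18.1 CPM against 21.7, 80.8, 94.4 and 68.9 CPM (log2 fold change -1.73, standard error 0.44, adjusted p = 0.0193). G0s2, the inhibitor of Pnpla2, was at 0.967, 2.22 and 1.55 CPM against 29.7, 220.4, 214 and 143 CPM (log2 fold change -6.58, standard error 0.65, adjusted p = 0.00124). Activating and inhibiting partners of the same lipase were thus both lower. Pnpla3, a relative of Pnpla2 on droplets of liver and fat, was at 0.200, 5.32 and 0.528 CPM against 79.6, 435, 659 and 366 CPM (log2 fold change -7.58, standard error 1.08, adjusted p = 0.00539). Without KO piece 02 the log2 fold change was -10.15 for Pnpla3 and -6.46 for Mgll.

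The lowest rescued piece of Abhd5, 21.7 CPM, was close to the highest KO piece, 21.4 CPM, and the call was lost without KO piece 01 (edgeR adjusted p = 0.0565) or without KO piece 03 (0.0609). The antisense gene A730085K08Rik overlaps 15.9% of the exon bases of Abhd5, and 4732471J01Rik overlaps 15.6% of those of Lipe.

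Related genes moved by different amounts. For 10 pairs of related members, the log2 ratio of the first gene to the second was taken within each piece and compared between groups by a two-sided exact permutation test over the 35 ways to split 7 pieces, whose smallest p is 0.0286. In 8 of the 10 pairs the test reached that smallest p (0.0357 after adjustment over the pairs). Scd1 against Scd2 had log2 ratios of -1.88, -0.61 and -1.58 in KO and of 3.81, 5.71, 5.59 and 5.51 in KO+NM1, a difference of means of -6.51. The desaturase with more reads was thus Scd2 in every KO piece and Scd1 in every rescued piece. Fabp4 against Fabp5 went from -0.93 ± 0.79 (SD, n = 3) to 6.02 ± 0.63 (SD, n = 4). Plin1 against Plin2 went from -5.91 ± 2.02 to 1.22 ± 0.66, and Plin4 against Plin3 from -3.20 ± 0.88 to 3.47 ± 1.03. Dgat2 against Dgat1 went from -0.9998 ± 0.29 to 3.05 ± 0.30, and Agpat2 against Agpat3 from -3.44 ± 0.18 to 1.06 ± 0.62. In these 6 pairs the sign of the mean ratio differed between the groups. Pnpla3 against Pnpla2 differed by -3.86 and Acacb against Acaca by -1.51, with Acaca and Pnpla2 ahead in all 7 pieces. The difference for Acacb against Acaca was -0.64 without KO piece 01, which had a log2 ratio of -4.28. Elovl6 against Elovl5 (difference -1.02) and Lpin1 against Lpin2 (difference -3.12) had an exact p of 0.0571, which is not past 0.05. In both of these pairs every KO piece still lay below every rescued piece. Their mean ratios also changed sign, from -0.81 to 0.21 for Elovl6 against Elovl5 and from -0.38 to 2.75 for Lpin1 against Lpin2.

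**Figure D3:**
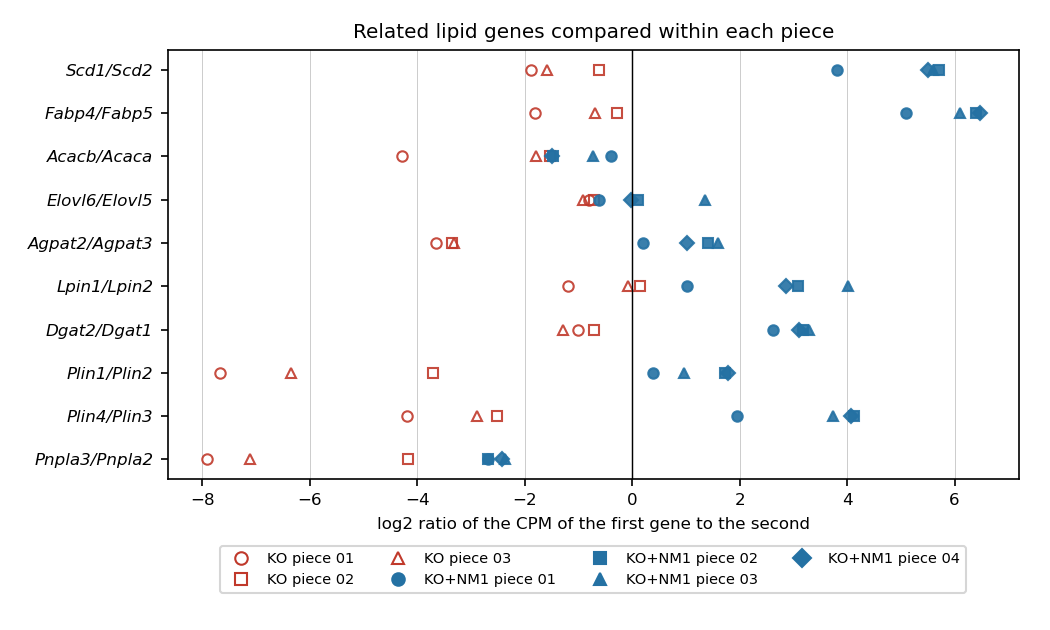
Log2 ratio of the CPM of 2 related genes within each tumor piece, for 10 pairs; open red symbols are KO pieces and filled blue symbols KO+NM1 pieces. For Scd1/Scd2 and Fabp4/Fabp5 the KO pieces lie below 0 and the rescued pieces between 3.81 and 6.47, and the groups nearly meet for Acacb/Acaca and Elovl6/Elovl5.

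Levels per length (TPM, reads scaled for the union of a gene's exons and then to a common total) put the genes in another order in each group. In KO, Scd2 led with 259 ± 61.5 TPM (SD, n = 3), followed by Fasn with 149 ± 45.0, Scd1 with 115 ± 40.7 and Pnpla2 with 94.4 ± 16.7 TPM. The Scd2 pieces, at 221 TPM or more, lay above the Fasn pieces, at 200.5 TPM or less, while Fasn, Scd1 and Pnpla2 differed from their neighbour by less than the spread of their pieces. At the low end were Plin1 with 1.85 ± 2.30, Aqp7 with 0.900 ± 0.770 and Plin5 with 0.553 ± 0.282 TPM. In KO+NM1, Scd1 led with 7168 ± 3351 TPM (SD, n = 4) and Fabp4 followed with 5044 ± 2508, ahead of Fasn with 1795 ± 921, Pnpla2 with 1706 ± 799 and Gpd1 with 1657 ± 1031 TPM. The means of Scd1 and Fabp4 differed by less than their spread, as did those of Fasn, Pnpla2 and Gpd1 among themselves. That spread includes the low piece 01 shared by these genes, and TPM orders were not compared within each piece. In CPM, Scd1 was above Fabp4 in every rescued piece. The lowest were Gpam with 10.0 ± 4.14 and Lpin2 with 5.23 ± 2.01 TPM. Scd2, first in KO, was at 157 ± 15.7 TPM in KO+NM1. The order below the leading genes depended on the length used: on the longest transcript Scd2 still led in KO and Scd1 and Fabp4 in KO+NM1, but in KO Plin2 ranked 3 with 122 ± 9.63 TPM and in KO+NM1 Lpl ranked 3 with 2326 ± 1215 TPM, against 1116 ± 583 TPM on the exon union.

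The rescued pieces varied among themselves. KO+NM1 piece 01 was the lowest of its group in 36 of the 37 genes and piece 03 the highest in 32. The median coefficient of variation over the 37 genes was 28.5% among KO pieces, 57.0% among KO+NM1 pieces and 26.8% among KO+NM1 pieces 02 to 04. Over the 30 genes that fell, the median of pieces 02 to 04 stood above piece 01 by 4.78 times at the median gene, with a range from 1.66 to 8.09 times. Piece 01 also had the lowest white adipocyte marker sum of its group, 1447 CPM against 13024, 11164 and 9295 CPM in pieces 02 to 04. Its mammary epithelium (537 CPM against 2007, 1712 and 2366 CPM) and fibroblast sums (2046 CPM against 7097, 4522 and 8303 CPM) were the lowest too. So were its brown adipocyte, keratinocyte, sebocyte and endothelial sums. Its macrophage sum was the highest, 2453 CPM against 738, 584 and 802 CPM. The part of these cell types in the low values of piece 01 was not tested. The share of reads from the mitochondrial genome was 1.81% to 2.14% in the KO pieces and 5.11%, 10.5%, 18.5% and 7.77% in KO+NM1 pieces 01 to 04, the same order of pieces as for Gpd1, Agpat2 and the lipases, and its part in these differences was not tested. In 22 of the 30 genes, piece 01 was still over 2 times the highest KO piece.

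At the median, the synthesis genes set piece 03 apart from piece 02, though single genes of the roles overlapped. The ratio of piece 03 to piece 02 had a median of 2.09 over the 8 fatty acid synthesis genes, with all 8 above 1, and of 1.67 over the triglyceride assembly genes. It was 1.12 over the droplet genes, 1.03 over the uptake genes and 1.14 over the lipolysis genes, and 0.983 over all genes tested with counts in piece 02. The ratio was 3.63 for Acacb, 2.79 for Elovl6, 2.26 for Thrsp, 2.00 for Fasn and 2.34 for Gpd1, while it was 0.991 for Plin1, 1.03 for Lpl and 1.08 for Fabp4. Other genes went against this division. Among synthesis and assembly genes it was only 1.39 for Scd1, 1.17 for Elovl5 and 1.19 for Dgat2. Among droplet and lipolysis genes it reached 2.40 for Plin5, 1.69 for Plin2 and 1.52 for Pnpla3. White adipocyte markers had a median ratio of 0.848 and brown adipocyte markers, of which 5 of 7 were lower in KO and 1, Zic1, higher, of 2.60; Ucp1, the uncoupling protein of brown fat, was at 191, 325, 1775 and 129.7 CPM in KO+NM1 pieces 01 to 04. These are ratios of 2 libraries with no replicate, and the part of the brown adipocyte transcripts in them was not tested.

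**Figure D4:**
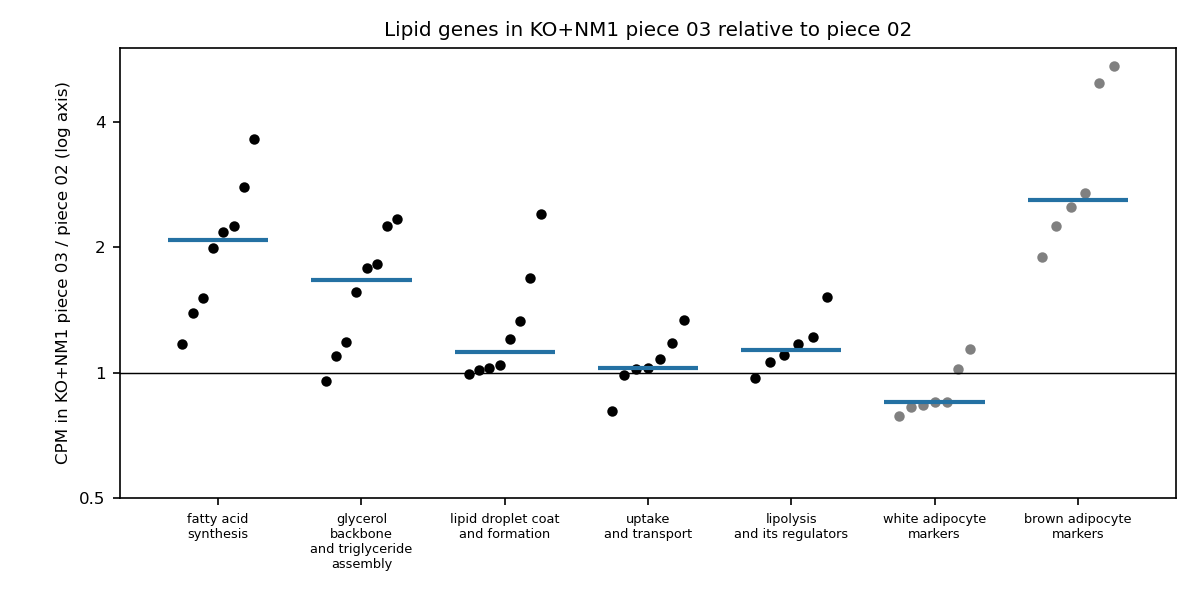
Ratio of CPM in KO+NM1 piece 03 to piece 02 (log axis) for each lipid gene by role (black) and for white and brown adipocyte markers (grey; Zic1, at 0 in piece 02, is left out); blue bars are medians. The synthesis genes have a median of 2.09, the droplet, uptake and lipolysis genes of 1.03 to 1.14, and the brown adipocyte markers of 2.60.

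**Figure D5:**
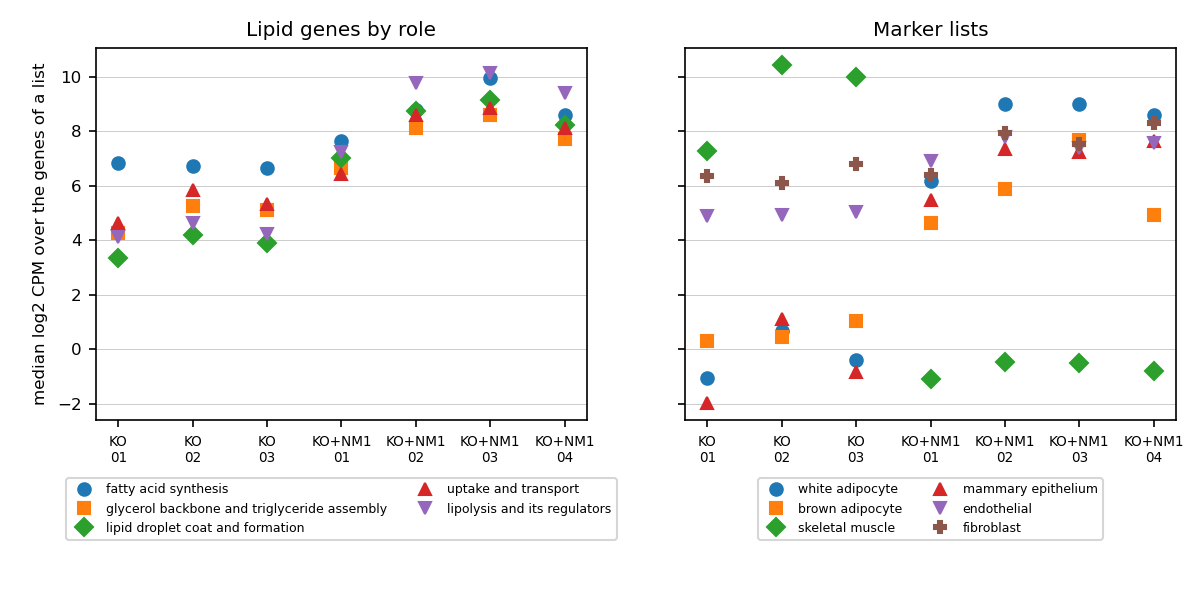
Median log2 CPM over the genes of each role (left) and over 6 marker lists (right) in each tumor piece. All 5 roles and the white adipocyte, brown adipocyte, mammary epithelium and endothelial lists are higher in the 4 KO+NM1 pieces than in the 3 KO pieces, and the skeletal muscle list is lower.

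Of the wider lipid list, 70 further genes of the same pathways, 69 were tested, and 34 were lower and 6 higher in KO, with a median log2 fold change of -1.30. These counts and those of its groups stand beside 20.3% lower and 17.1% higher over all genes tested. Of the genes that supply acetyl-CoA and NADPH, 4 of 6 fell, the mitochondrial citrate carrier Slc25a1 most (50.8, 52.4 and 49.96 CPM against 184, 707, 1105 and 491 CPM; log2 fold change -3.61). Of the elongation, desaturation and activation genes, 3 of 16 fell and 3 rose, close to the shares over all genes in both directions. Among them the acyl-CoA synthetase Acsl1 fell by 3.64 on the log2 scale, and its relative Acsl6 rose by 7.20, from at most 0.366 CPM in KO+NM1 to 34.8 to 42.2 CPM in KO. Of the other triglyceride assembly genes, 3 of 9 fell and 1 rose: Mogat1, which acylates monoglyceride, was at least 128-fold lower against a floor of 3 counts per KO library, and the acyltransferase Agpat4 rose by 1.39 on the log2 scale. Of the other droplet genes tested, 5 of 8 fell and 1 rose. The fall of Cidea, a droplet protein of brown fat and mammary gland, was -8.34 on the log2 scale, from KO levels of 0.0667, 2.75 and 0.0660 CPM, and was -12.22 without KO piece 02 and -7.32 without KO+NM1 piece 03. The rise of Fitm1, the muscle relative of Fitm2, was 3.27, and 3.92 without KO+NM1 piece 03; its call was lost without KO piece 02 or 03 (edgeR adjusted p = 0.0563 and 0.0506).

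Of the other uptake genes, 6 of 10 fell, with the transporter Slc27a2 at least 77.3-fold lower by the same floor. That bound was 33.7-fold without KO+NM1 piece 03, whose 21.0 CPM stood above the 2.84, 5.17 and 2.22 CPM of pieces 01, 02 and 04. Of the genes of lipolysis and its hormone signal, 7 of 9 fell and 0 rose, the carboxylesterase Ces1f most, with a log2 fold change of -10.54 from counts of at most 4 in a KO library. Of the lipogenic transcription factors and sterol sensors, 6 of 11 fell and 0 rose. Pparg, which encodes PPARγ, was at 3.50, 5.28 and 2.38 CPM in KO against 38.2, 226, 252 and 163 CPM in KO+NM1 (log2 fold change -5.51, standard error 0.60, adjusted p = 0.00148 by edgeR). Every KO piece was below every rescued piece.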

How the data were processed

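Total RNA of 3 KO and 4 KO+NM1 tumor pieces was sequenced after NEBNext Ultra II library preparation. The authors trimmed reads with Trimmomatic 0.36, aligned them with HISAT2 2.0.4 to GRCm38 and, per the labels, counted them per gene with HTSeq; the deposited values are raw counts. The annotation release and the strand setting are not given in the sources used here. Gene identifiers were paired with GENCODE M21 symbols. Genes passing filterByExpr (minimum count 10) were fitted with edgeR 4.0.16 (TMM scaling, quasi-likelihood test, all 7 libraries, no covariate), with Benjamini-Hochberg adjustment over all 16887 genes. A gene was called lower or higher at an adjusted p under 0.05 and at least 2-fold, KO minus KO+NM1; every adjusted p of a single gene is from this fit or a named alternative. CPM values carry TMM scaling; log2 CPM used a prior count of 2; TPM used the union of exons. A count of 0 allows up to 3 counts, 0.0991 to 0.148 CPM per library, for counting error only. The fit was checked on simulated counts. No 2 libraries of a group agreed within sampling noise. The piece numbers of the 2 groups are only names.

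The 37 genes, the wider list and the marker lists were chosen with earlier results of these data known. All 37 were named; of each wider group, the largest rise and fall among called genes (1 item is not reported here), and of the markers, counts and sums. Keratinocyte markers (1 of 5 tested higher in KO) and sebocyte markers (0 of 5 called) were also examined, as were fibroblast markers (5 of 8 lower). Alternatives were other scalings, filters and tests (DESeq2 1.42.0, limma 3.58.1) and leaving out each piece.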

Additional observations from a re-analysis of the deposited data

Results flagged for a closer look

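KO+NM1 piece 01 stood far below the other 3 rescued pieces for several values, by the gap between it and its nearest neighbour as a share of the whole range of the group. That share was 0.8295 for log2 CPM of Plin1 (7.92 against 10.92, 10.90 and 10.40), 0.928 for Plin4 (7.93 against 10.95, 10.97 and 10.75), 0.911 for Lpl (9.84 against 12.64, 12.67 and 12.42) and 0.833 for Cd36 (9.02 against 11.49, 11.52 and 11.10). It was 0.857 for the median log2 CPM of the white adipocyte markers (6.17 against 8.98, 9.01 and 8.61) and 0.897 for the log2 ratio of Scd1 to Scd2 (3.81 against 5.71, 5.59 and 5.51). These were 6 of 62 values examined in this way, and chance marks about 1 in 20 of independent values. The 62 values come from the same pieces and move together, so that rate cannot be used to judge the 6.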

How the results depend on the processing

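Of the 30 genes lower in KO, 24 kept their calls in all 17 alternative fits that could test them at both thresholds, and all 30 stayed negative. The other 6 (Acaca, Acacb, Elovl6, Lpin1, Fitm2 and Abhd5) lost the call in at least 1; Lpin1 lost it only with glmTreat, a test against a 2-fold change (adjusted p = 0.0577). Leaving out 1 piece gave 25 to 31 lower and 0 higher of the 37, and 26 to 38 lower and 5 to 8 higher of the wider list. On adjusted p alone 1 of the 37 was higher. With glmTreat 25 of the 37 and 21 of the wider list were lower. Scd2 ranged from -0.0851 to 0.44 with 1 piece left out, turning to -0.0851 without KO piece 01 and to -0.0393 without KO+NM1 piece 01. The piece number as a replicate block, tried although same-numbered pieces did not deviate together (r = 0.0802, 0.1025 and -0.0165, and 1 of 3 KO pieces closest to its own number), gave 26 of the 37 lower and 24 of the wider list; over all genes it gave 2493 lower and 2437 higher, against 3424 and 2882. Other scalings moved the median log2 fold change of all genes by as much as 0.17 (library size alone) and -0.16 (upper quartile), with 30 of the 37 lower under each. Limma called 3991 genes lower and 4096 higher. With 1 piece left out, or with the 3 numbered pairs in a sign-flip test, the exact test of the gene pairs cannot reach 0.05 after adjustment, so those results say nothing of stability; with prior counts of 0.5 and 5 the number past 0.05 was 8 of 10 as well. TPM on the longest transcript in place of the exon union moved 20 of 74 group means by more than 1 SD. Motif counts in the 250 bases before the start differed by 1 gene, for the E-box of Plin2. Depth bears on the lowest KO values, such as Aqp7 in KO piece 01, at the floor of 3 counts. The bounds for Mogat1 and Slc27a2 with 1 rescued piece left out were added after seeing the data; that of Mogat1 ran from 106-fold to 163-fold.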
